A study of Homo sapiens with 35 samples.

Results

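RNA polymerase II (RNA Pol II) chromatin immunoprecipitation sequencing (ChIP-seq) was compared between TWEAK-treated and untreated U-87 MG cells. The U-87 MG line was established from a human glioblastoma. The 4 libraries were chosen by their labels as the RNA Pol II libraries of control cells, with 2 replicates without TWEAK and 2 replicates treated with 10 ng/ml of TWEAK for 48 h. All of these cells were the control arm of a CRISPR study, so the untreated and TWEAK-treated groups differed in the labels by TWEAK alone, and the protocol in the labels gives starvation in Opti-MEM before treatment. The 4 peak lists held 134883 of the 273996 peaks in the 20 peak lists of the series, and came from 4 of its 35 samples. The other ChIP-seq libraries were made for p52, ETS1 or RNA Pol II after knockdown, and 12 RNA-seq libraries were made in parallel, of which 3 untreated and 3 TWEAK-treated control libraries are used here. No source states whether the ChIP-seq replicates came from separate cultures, so p-values measure the spread between these libraries, which may be technical.

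TWEAK (TNFSF12) is a cytokine of the tumour necrosis factor family that binds the receptor Fn14 (TNFRSF12A). The receptor draws TRAF and cIAP proteins (BIRC2 and BIRC3) away from the kinase NIK (MAP3K14), which then accumulates and activates IKKα (CHUK), so that the NFKB2 product p100 is cut to p52. The p52 subunit pairs with RELB and enters the nucleus, an arm known as the non-canonical NF-κB pathway, while TWEAK can also activate the canonical arm of p50 and RELA. RNA Pol II typically initiates at a promoter, halts shortly downstream of the start, and is then released through the gene body to the 3′ end, where it slows before it leaves the template. A ChIP-seq peak therefore marks where RNA Pol II is found on average, either halted at a start or spread over a transcribed gene, and its width and position help to tell the forms apart.

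The promoters of 6 NF-κB pathway genes on which the results below turn are shown first, since RNA Pol II was compared at or near their starts. Each sequence is the stretch before the start in RefSeq GRCh38.p14, read 5′ to 3′ on the strand of the gene, and matches to the 10-base NF-κB consensus on either strand are in capitals. The genes were chosen with their values known.
BIRC3, chr11:102317234-102317483, plus strand: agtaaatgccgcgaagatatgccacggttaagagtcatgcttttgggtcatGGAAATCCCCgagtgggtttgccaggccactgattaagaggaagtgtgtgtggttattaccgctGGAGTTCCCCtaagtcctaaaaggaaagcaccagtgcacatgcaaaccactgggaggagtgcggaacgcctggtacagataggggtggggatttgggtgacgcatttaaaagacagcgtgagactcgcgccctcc
NFKBIA, chr14:35404750-35404999, minus strand: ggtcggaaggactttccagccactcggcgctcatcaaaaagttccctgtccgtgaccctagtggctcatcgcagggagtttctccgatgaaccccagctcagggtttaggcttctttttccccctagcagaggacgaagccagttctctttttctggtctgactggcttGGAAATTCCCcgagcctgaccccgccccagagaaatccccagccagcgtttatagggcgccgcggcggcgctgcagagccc
CXCL2, chr4:74099197-74099402, minus strand: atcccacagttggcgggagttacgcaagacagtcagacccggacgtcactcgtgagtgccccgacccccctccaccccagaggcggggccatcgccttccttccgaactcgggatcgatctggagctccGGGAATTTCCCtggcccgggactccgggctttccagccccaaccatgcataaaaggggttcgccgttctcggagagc
TNFAIP3, chr6:137867009-137867213, plus strand: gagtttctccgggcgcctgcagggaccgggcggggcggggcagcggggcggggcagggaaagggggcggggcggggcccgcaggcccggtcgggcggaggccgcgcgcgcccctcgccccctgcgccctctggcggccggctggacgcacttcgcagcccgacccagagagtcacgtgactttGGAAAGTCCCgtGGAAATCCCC
NFKB2, chr10:102395455-102395692, plus strand: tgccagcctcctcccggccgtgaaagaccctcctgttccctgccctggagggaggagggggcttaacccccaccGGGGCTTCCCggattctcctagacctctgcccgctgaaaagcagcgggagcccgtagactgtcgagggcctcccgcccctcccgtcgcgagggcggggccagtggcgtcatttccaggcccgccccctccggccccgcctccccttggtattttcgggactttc
TRAF1, chr9:120926797-120927046, minus strand: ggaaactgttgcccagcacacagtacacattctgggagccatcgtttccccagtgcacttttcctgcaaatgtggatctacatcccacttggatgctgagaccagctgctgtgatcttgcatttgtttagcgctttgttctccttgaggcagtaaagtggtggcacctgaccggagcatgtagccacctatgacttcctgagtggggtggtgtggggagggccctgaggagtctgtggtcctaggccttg

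The BIRC3 stretch held 2 matches, beginning 199 and 135 bp before the start, and that of TNFAIP3 held 2, at 67 and 55 bp. NFKBIA had 1 match at 81 bp, while the match of NFKB2 at 176 bp read as the consensus on both strands and the pair in CXCL2 at 78 and 77 bp overlapped. The TNFAIP3 stretch shown stops 46 bp before the start and the NFKB2 stretch 13 bp before it. With both strands counted, the full 250 bases of NFKB2 held 3 matches, so that a further match lies nearer the start. No match lay in the TRAF1 window. A match was found in 11.2% of the windows of 250 bases before the start of 15344 coding genes, and a match is a description of the letters and not a bound site.

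The RNA Pol II lists held 24848 and 38307 peaks in untreated replicates 1 and 2 and 44672 and 27056 peaks in TWEAK replicates 1 and 2. They covered 13.8, 23.2, 27.4 and 16.2 Mb of the genome. The gap between replicates was as wide as that between conditions, and the read depth behind each list is unknown. Untreated replicate 1 stood apart from the rest. Over the 8981 sites with a peak in all 4 libraries, the rank correlation of peak strength between libraries, which share these sites and the cell line, was 0.656 to 0.710 for untreated replicate 1 and 0.770 to 0.836 among the other 3. Named values that moved by more than 1.5 times without this library, and gene groups whose balance changed, are given with and without it. The cell line was checked against marker genes. Of 6 markers of mesenchymal glioma lines, 5 carried a promoter peak in all 4 libraries, such as VIM, which encodes vimentin, with fold enrichments of 61.6 and 79.3 without and 213 and 95.8 with TWEAK, while CHI3L1, which encodes the secreted glycoprotein YKL-40, had none, at 263 to 305 CPM of RNA without and 55.6 to 69.9 CPM with TWEAK. None of 4 astrocyte and 4 myeloid markers had a promoter peak in any library, although RNA of the myeloid integrin gene ITGAM was 0.0347, 0.0307 and 0 CPM without and 0.789, 0.996 and 1.499 CPM with TWEAK (edgeR adjusted p = 0.000193). Among 4 neuronal markers SNAP25 had a peak in all 4 libraries, and among 3 endothelial markers PECAM1 had a peak in 1 TWEAK library. Total RNA-seq counts were between 28384201 and 40192606 per library.

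Most RNA Pol II peaks lay at promoters or in introns, and the share at each kind of location did not separate the conditions. A peak was assigned by its summit, with the promoter running from 1000 bp before to 100 bp after a start site. Promoters held 32.6 and 34.4% of the peaks of the untreated and 29.3 and 39.8% of those of the TWEAK libraries. Introns held 37.4 and 34.8% without and 38.7 and 31.8% with TWEAK. Exons held between 5.85 and 6.92%, 3′ ends between 9.25 and 10.8% and intergenic DNA between 12.0 and 14.9% in the 4 libraries. The mean promoter share was 1.02 percentage points higher with TWEAK (exact permutation test over 2 against 2 libraries, 2-sided p = 1), against a gap of 10.4 percentage points between the TWEAK replicates. The other 4 location shares and the 2 library medians given below had exact p-values of 0.667 to 1, all 1 after Benjamini-Hochberg adjustment over 7 tests, in a design whose smallest possible p is 0.333.

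**Figure D1:**
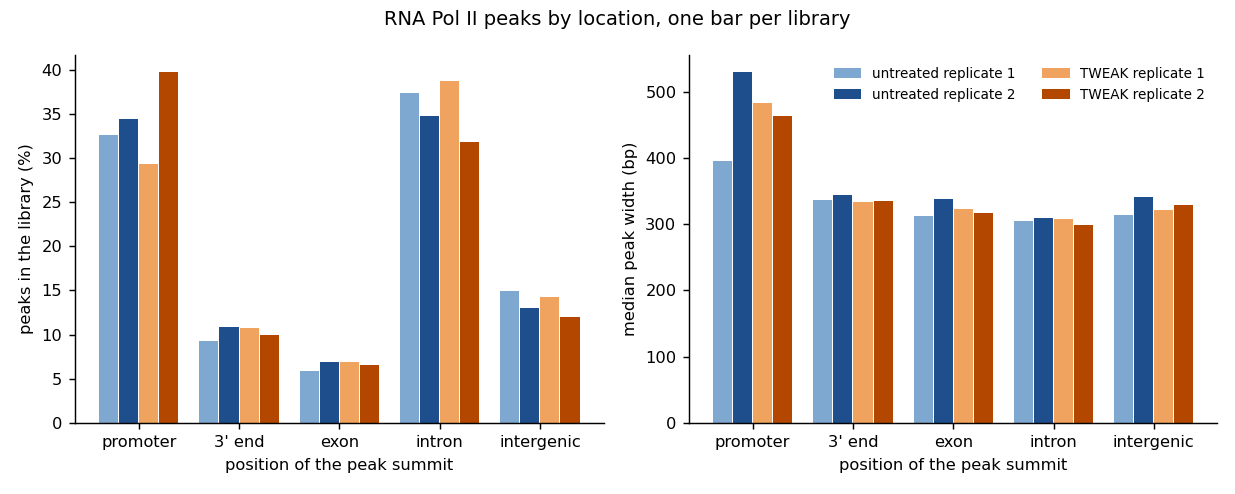
Share of the RNA Pol II peaks of each library by the position of the peak summit (left, percent) and median peak width at that position (right, bp), with 1 bar per library. Promoter shares of the TWEAK replicates (29.3 and 39.8%) lie on either side of the untreated ones, and promoter peaks are the widest in every library.

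Promoter peaks were both wider and stronger than the others. Their median width was 395 and 530 bp without and 483 and 463 bp with TWEAK, against 299 to 310 bp for intron peaks. Their median fold enrichment, the authors' ratio of RNA Pol II signal over background at the summit, was 6.15 and 7.59 without and 6.74 and 7.15 with TWEAK. Over all peaks the median width was 337 and 376 bp without and 350 and 361 bp with TWEAK, and the median fold enrichment was 4.91 and 4.83 without and 4.63 and 5.17 with TWEAK. For both measures the TWEAK values overlapped the untreated ones.

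When peaks sharing at least 1 bp were merged, the 4 lists gave 70354 sites, and most of them were seen in a single library. The 45810 sites of 1 library were weak and rarely at promoters (13.3%), with a median fold enrichment of 4.04 and a median width of 252 bp. In contrast, 64.4% of the 8981 sites of all 4 libraries were promoters, with a median fold enrichment of 12.8 and a median width of 865 bp. Those 8981 sites are the ones on which strength and width were compared below.

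At promoters the RNA Pol II summit sat just downstream of the transcript start in both conditions. For 5614 genes with a promoter peak in all 4 libraries, the median summit lay 34 and 36 bp downstream of the start without and 43 and 38 bp downstream with TWEAK. Within the 150 bp after the start lay 52.7 and 57.2% of the summits without and 59.8 and 57.4% with TWEAK. Both TWEAK libraries were thus above both untreated ones by these measures, by less than the gap between the untreated replicates for the share. A second, broad group of summits lay upstream of the start in all 4 libraries.

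**Figure D2:**
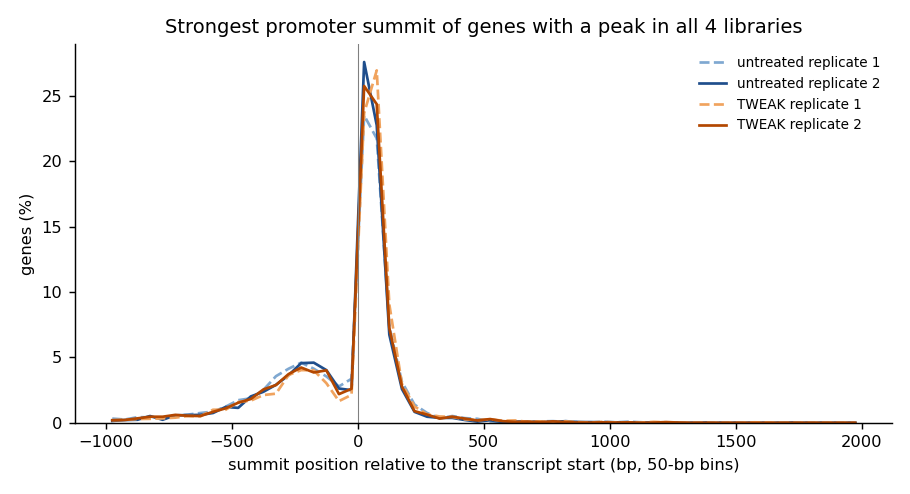
Position of the strongest RNA Pol II promoter summit relative to the transcript start (bp, 50-bp bins), as a percentage of 5614 genes, with 1 line per library. All 4 lines peak within 100 bp after the start and have a lower, broad shoulder upstream of it.

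A small number of very wide RNA Pol II domains covered whole genes. Peaks over 2 kb made up 2.69 and 2.81% of peaks without and 3.42 and 2.85% with TWEAK, but held 22.1 and 20.9% of the covered bases without and 26.3 and 23.5% with TWEAK. Both TWEAK shares of covered bases were above both untreated ones. They overlapped when the lists were brought to equal numbers of peaks (22.1 and 25.5% without, 33.8 and 24.4% with TWEAK) or held to stricter peaks (36.0 and 32.0% without, 42.5 and 33.8% with TWEAK). The widest peak was 63047 and 75896 bp without and 85034 and 80279 bp with TWEAK. Peaks over 10 kb numbered 53 and 81 without and 121 and 72 with TWEAK, with overlap between the groups. They fell into 152 sites, of which 29 held such a peak in all 4 libraries and 77 in 1 library.

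The widest domains lay over non-coding RNA genes and coding genes alike. The widest peak of the TWEAK libraries lay over LINC-PINT (chr7:130834379-130934822, hg38), a p53-regulated long non-coding RNA, and was 48884 and 75896 bp wide without and 85034 and 80279 bp with TWEAK. NEAT1, the RNA scaffold of nuclear paraspeckles, carried peaks of 63047 and 51758 bp without and 67809 and 41455 bp with TWEAK. These NEAT1 widths overlapped between conditions. At NAMPT, which encodes the rate-limiting enzyme of NAD salvage and a secreted factor (chr7:106245705-106286688), RNA Pol II covered the whole gene as 1 peak in each library, 40870 and 40837 bp wide without and 40951 and 40954 bp with TWEAK. The raw fold enrichment at the summit of that domain was higher in both TWEAK libraries, at 117 and 55.7 against 33.0 and 46.7 without TWEAK. These values are not scaled between libraries. The 99th percentile of fold enrichment over all peaks was also higher with TWEAK, at 62.6 and 49.1 against 38.3 and 41.9 without. At CD44, the hyaluronan receptor and a mesenchymal glioma marker (chr11:35138416-35244109), the bases covered were 96286 and 90260 without and 105144 and 97261 with TWEAK. At LMNA, which encodes lamins A and C, the widest peak was 42474 and 11885 bp without and 47954 and 5209 bp with TWEAK, with no order by condition, since domains break into several peaks in some libraries. MIR222HG, the host gene of miR-221 and miR-222, showed the same, as 1 peak of 32618 bp in untreated replicate 2 and 20 peaks, none over 3392 bp, in untreated replicate 1.

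RNA Pol II strength was then compared at the 8981 sites with a peak in all 4 libraries, to ask where RNA Pol II differed upon TWEAK stimulation. Strength was the log2 fold enrichment at the strongest summit, brought to the same distribution in each library, so that it is close to a rank. None of the 8981 sites passed an adjusted p of 0.05 (limma, 0% called), and the smallest adjusted p was 0.811, while 368 sites (4.10%) had an unadjusted p under 0.05. Both TWEAK libraries were above both untreated libraries at 1493 sites (16.6%) and below both at 1475 sites (16.4%). Promoters made up 74.7% of the higher, 60.7% of the lower and 64.4% of all these sites. That balance between the directions depended on the scaling. With libraries only centred on their medians the counts were 1829 higher and 1183 lower, with the median of all sites at 0.05, and without normalisation they were 1508 and 671, with the median at 0.17 on the log2 scale. The sites named below were ordered by size among those whose groups do not overlap on the normalised scale, so that their separation is how they were chosen and the values are a description.

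Among promoters of coding genes with stronger RNA Pol II in both TWEAK libraries, the first 3 by size were MYBL1, CXCL2 and TRAF1, and RNA of all 3 rose. MYBL1, on chromosome 8, encodes the transcription factor A-MYB. Its promoter had fold enrichments of 6.01 and 7.09 without and 31.3 and 24.5 with TWEAK, a log2 difference of 1.81 (SE 0.33, limma adjusted p = 0.811). In each library's own ranking of peaks by fold enrichment, where the strongest is at 100, the MYBL1 promoter stood at 69.5 and 74.9 without and at 97.7 and 97.1 with TWEAK. The MYBL1 RNA was 34.8, 37.9 and 26.97 CPM (counts scaled to the library total) without and 71.5, 73.7 and 89.7 CPM with TWEAK, a log2 change of 1.24 (edgeR adjusted p = 0.00825). CXCL2, a neutrophil-attracting chemokine and NF-κB target (chr4:74094642-74100068), had fold enrichments of 15.0 and 26.5 without and 159 and 61.7 with TWEAK, a log2 difference of 1.75 (SE 0.34, limma adjusted p = 0.811). The domain ran over the CXCL2 gene, whose promoter holds the overlapping pair of NF-κB matches shown above, and its RNA rose by 2.04 on the log2 scale (edgeR adjusted p = 0.000733). TRAF1, a TRAF adaptor and NF-κB target (chr9:120924879-120926804), had 5.005 and 7.09 without and 22.9 and 18.0 with TWEAK (log2 difference 1.58, SE 0.33). The untreated TRAF1 peaks lay within the gene and did not reach its promoter window. RNA of TRAF1 was 10.3, 11.03 and 13.6 CPM without and 64.2, 83.1 and 144 CPM with TWEAK (log2 change 3.06, edgeR adjusted p = 0.000249).

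The other 7 named promoters with stronger RNA Pol II were those of SLC8B1, GSPT1, SERPINE2, CDC34, KLHDC2, EPB41L2 and ACER2. SLC8B1, the mitochondrial sodium-calcium exchanger, had 3.23 and 16.8 without and 22.0 and 20.5 with TWEAK. Its low value came from untreated replicate 1, where the site ranked at 2.77 against 94.2 in untreated replicate 2 and 96.3 and 96.1 with TWEAK. Without that library the log2 difference of SLC8B1 went from 1.48 to 0.43, that of CDC34 from 1.41 to 0.79 and that of KLHDC2 from 1.39 to 0.83. Without TWEAK replicate 1 those of CDC34 and ACER2 were 0.78 and 0.82. GSPT1, the translation termination factor eRF3a, had 5.62 and 8.32 without and 27.99 and 17.6 with TWEAK, a log2 difference of 1.47. SERPINE2, an inhibitor of thrombin and of plasminogen activators, had 5.74 and 15.2 without and 48.7 and 19.7 with TWEAK, a log2 difference of 1.44. CDC34, a ubiquitin-conjugating enzyme that works with SCF ligases, had 4.04 and 12.9 without and 41.0 and 11.4 with TWEAK. The raw values of CDC34 overlapped, and its groups were apart on the normalised scale alone. KLHDC2, a substrate receptor of a cullin ligase, had 3.36 and 9.63 without and 16.5 and 13.9 with TWEAK. No peak of untreated replicate 1 reached its promoter window. EPB41L2, a protein 4.1 family linker of membrane and cytoskeleton, had 5.39 and 7.25 without and 23.6 and 12.8 with TWEAK. ACER2, the Golgi alkaline ceramidase, had 6.05 and 9.04 without and 34.9 and 13.2 with TWEAK. Within this group of 7 the RNA of EPB41L2 rose, by 0.63 on the log2 scale (edgeR adjusted p = 0.0149), and RNA of the other 6 did not pass, with log2 differences from -0.36 to 0.25.

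At 10 named promoters RNA Pol II was weaker in both TWEAK libraries. CALD1, the actin-binding protein caldesmon (chr7:134779025-134782363), had 18.9 and 11.3 without and 6.06 and 7.23 with TWEAK, a log2 difference of -1.32 (SE 0.48, limma adjusted p = 0.986) that was -0.58 without untreated replicate 1 and -2.15 without untreated replicate 2. Its rank was 97.2 and 87.9 without and 73.5 and 73.8 with TWEAK. CCDC7, a coiled-coil protein gene, had 6.80 and 12.7 without and 3.86 and 3.77 with TWEAK. RNA of CALD1 and CCDC7 did not pass the test. VPS39, a tethering factor of late endosomes, had 11.6 and 12.96 without and 11.3 and 3.24 with TWEAK, so that TWEAK replicate 2 alone was low. VPS25, a subunit of the endosomal sorting complex ESCRT-II, had 9.94 and 7.70 without and 5.92 and 3.55 with TWEAK. WASHC2C, a subunit of the actin-nucleating WASH complex on endosomes, had 8.00 and 14.9 without and 4.16 and 6.02 with TWEAK. RAB3GAP1, which acts on RAB GTPases, had 12.2 and 19.5 without and 9.30 and 7.51 with TWEAK. CAMSAP2, a binder of microtubule minus ends, had 9.83 and 19.8 without and 5.14 and 10.2 with TWEAK. Shared promoters lay at C6orf52 and PAK1IP1 (7.40 and 12.9 without, 3.06 and 6.02 with TWEAK) and at ORC1 and PRPF38A (13.2 and 16.6 without, 11.7 and 5.42 with TWEAK). SRPX2, a secreted protein of the extracellular matrix, had 14.8 and 18.1 without and 6.74 and 11.4 with TWEAK. Without untreated replicate 1 the log2 difference of VPS25 went from -1.12 to -0.65. Without TWEAK replicate 1 those of C6orf52 and PAK1IP1, CAMSAP2 and SRPX2 went from -1.22, -1.08 and -1.08 to -0.67, -0.47 and -0.55, and without TWEAK replicate 2 those of VPS39 and of ORC1 and PRPF38A went from -1.27 and -1.13 to -0.48 and -0.72. SRPX2 was the member of the 10 whose RNA fell, by 0.89 on the log2 scale (edgeR adjusted p = 0.022).

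**Figure D3:**
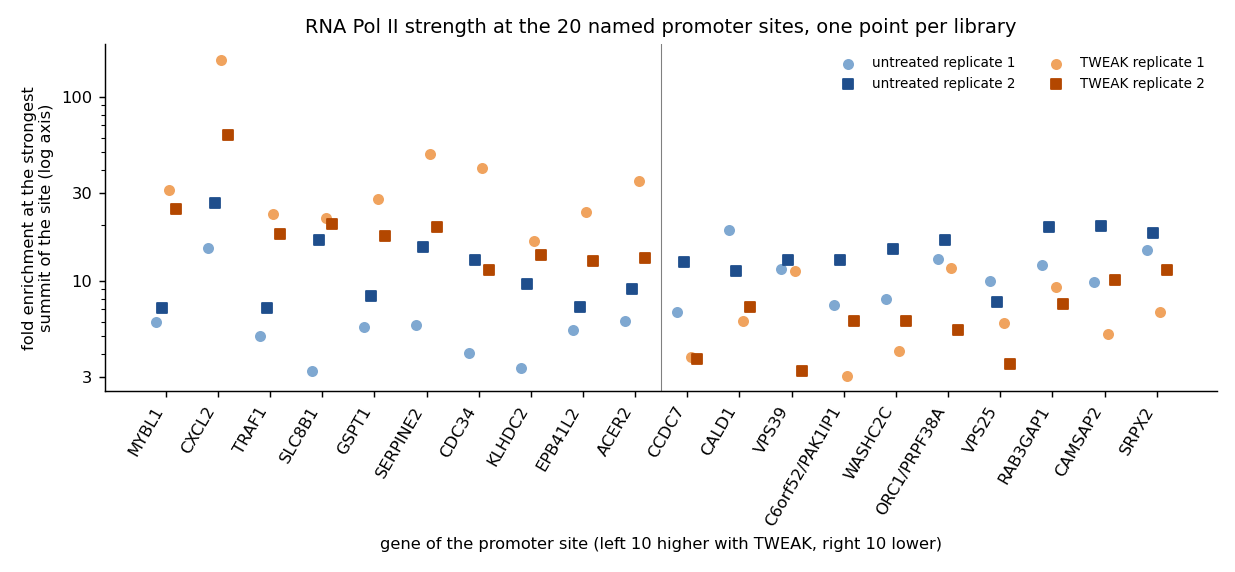
Fold enrichment at the strongest summit (log axis) of the 10 promoter sites with the largest higher and the 10 with the largest lower RNA Pol II strength upon TWEAK, with 1 point per library. Values of the first group reach 159 (CXCL2, TWEAK replicate 1), while those of the second group are all below 20.

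Sites away from coding promoters also stood at the ends of the range. The largest log2 difference of all, 2.12, was at a site inside DHX8, an RNA helicase gene of splicing (chr17:43607946-43608940), with 9.36 and 5.76 without and 68.0 and 29.4 with TWEAK. It lay 635 bp from the annotated start of a small non-coding RNA and overlapped a p52 peak found in both TWEAK p52 libraries. At the start of FAM86B3P, a non-coding RNA gene on chromosome 8, the values were 3.36 and 3.44 without and 11.02 and 13.8 with TWEAK, a log2 difference of 1.77. At the 3′ end of GFPT2, an enzyme of the hexosamine pathway (chr5:180297668-180301222), the values were 3.82 and 4.02 without and 15.2 and 15.0 with TWEAK, a log2 difference of 1.82. The TWEAK peaks there were 3317 and 1777 bp wide against 223 and 771 bp without TWEAK. An intergenic site 15527 bp from the start of PARD6G (chr18:80262899-80263263) had 19.7 and 17.1 without and 2.87 and 11.5 with TWEAK. Its log2 difference of -1.78 was the largest fall in strength among the named sites, with TWEAK replicate 1 far below TWEAK replicate 2. An intergenic site 40850 bp from the start of PDLIM5 (chr4:94410394-94411687) was lower in both TWEAK libraries, with 12.0 and 10.9 without and 4.71 and 4.62 with TWEAK.

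The RNA Pol II sites were also set beside the p52 and ETS1 peaks of the series. A p52 peak found in both TWEAK p52 libraries overlapped 6.16% of the higher, 3.46% of the lower and 5.18% of all sites. With a difference above 2-fold, 9 of 63 higher sites (14.3%) and 4 of 48 lower sites (8.33%) overlapped one, against 16 of all 118 sites with such a difference (13.6%). ETS1 peaks overlapped 8.04, 6.10 and 6.06% of the higher, lower and all sites. In the 300 bases around the summit the NF-κB consensus matched in 13.3% of the higher, 9.15% of the lower and 11.4% of all sites, whose GC content was 65.3, 55.5 and 59.5% in the same order. Above 2-fold it matched in 11.1% of the higher and 6.25% of the lower sites. These shares were not tested, and the part of the GC content in them was not tested. The higher and lower sites were defined by the order of the libraries, and a response to TWEAK at them was not shown.

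Site width gave a similar picture, with no site past the test. None of the 8981 sites was called (limma, 0%), the smallest adjusted p was 0.659, and 283 sites (3.15%) had an unadjusted p under 0.05. On the normalised scale both TWEAK libraries were wider than both untreated ones at 1209 sites (13.5%) and narrower at 1297 (14.4%). Without normalisation these counts were 1401 and 638, with the median of all sites at 0.15 on the log2 scale.

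TRAF1 and TNFAIP3 led the promoters where RNA Pol II was wider in both TWEAK libraries. The TRAF1 site covered 240 and 302 bp without and 1347 and 1926 bp with TWEAK (log2 difference 2.44, SE 0.46, limma adjusted p = 1.0). At TNFAIP3, which encodes the ubiquitin-editing NF-κB inhibitor A20 (chr6:137866069-137868747), RNA Pol II covered 211 and 541 bp without and 2679 and 680 bp with TWEAK. Its fold enrichment was 6.73 and 5.78 without and 24.97 and 10.01 with TWEAK, at the promoter with 2 NF-κB matches shown above. RNA of TNFAIP3 had a log2 difference of 0.53 that did not pass (edgeR adjusted p = 0.284). ZSWIM4, a zinc finger gene, covered 231 and 1842 bp without and 3196 and 2185 bp with TWEAK, and its RNA rose by 1.69 on the log2 scale. PITPNB, a phosphatidylinositol transfer protein, covered 194 and 752 bp without and 1616 and 1095 bp with TWEAK. GYPC, the membrane glycoprotein glycophorin C, covered 999 and 471 bp without and 3585 and 1587 bp with TWEAK. The strongest summit of the GYPC site lay in an intron, and no untreated peak reached its promoter window. At ZSWIM4 no peak of untreated replicate 1 reached the promoter window. The narrowest untreated value was in untreated replicate 1 at 4 of these 5 sites. Without that library the log2 difference in width went from 1.78 to 0.52 at ZSWIM4 and from 1.76 to 0.97 at PITPNB. It went from 1.70 to 0.84 at GYPC without untreated replicate 2 and from 1.89 to 1.09 at TNFAIP3 without TWEAK replicate 1.

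RNA Pol II was narrower in both TWEAK libraries at CALD1, TIMM22, GLIPR1, PDLIM5 and PIN4. The CALD1 site covered 3339 and 1031 bp without and 232 and 415 bp with TWEAK (log2 difference -2.60, SE 0.78, and -1.54 without untreated replicate 1), so that this promoter was both weaker and narrower. GLIPR1, a secreted-protein family gene first described in glioma, covered 1809 and 1831 bp without and 709 and 506 bp with TWEAK. PDLIM5, a PDZ and LIM adaptor of actin and kinases (chr4:94451529-94455005), covered 3097 and 2600 bp without and 910 and 1024 bp with TWEAK, while its summit strength, 15.6 and 24.5 without and 32.4 and 19.9 with TWEAK, overlapped. TIMM22, of the mitochondrial inner membrane translocase, covered 632 and 1750 bp without and 415 and 183 bp with TWEAK. No peak of TWEAK replicate 2 reached its promoter window. PIN4, a prolyl isomerase, covered 581 and 787 bp without and 225 and 221 bp with TWEAK. RNA of none of these 5 genes passed the test, with log2 differences from -0.37 to -0.02.

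RNA Pol II in gene bodies was measured as the bases under peaks, for 4441 coding genes. A body ran from 500 bp after the first annotated base of the gene to its end. Where the start used for the promoter lies further in, the body and the promoter window overlap. No gene was called (limma, 0%), and 108 (2.43%) had an unadjusted p under 0.05. On the normalised scale cover was higher in both TWEAK libraries for 530 genes (11.9%) and lower for 583 (13.1%). Without normalisation the counts were 613 and 243, with the median of all genes at 0.16 on the log2 scale. The smallest adjusted p of any RNA Pol II measure, 0.0931, belonged to FN1. The limma adjusted p of FN1 was 0.104 with stricter peaks and 0.614 with 250 bp in place of 1000 bp added to the cover. FN1 did not pass without normalisation either, and of the alternatives a replicate block alone brought it past the threshold. Its log2 difference was -3.82 to -2.96 with each library left out.

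FN1, which encodes the matrix protein fibronectin (chr2:215360440-215436073, minus strand), had 19559 and 28423 bp of its gene body under RNA Pol II without TWEAK and 3519 and 561 bp with TWEAK. This was 26.03 and 37.8% of the body without and 4.68 and 0.747% with TWEAK, a log2 difference of -3.41 (SE 0.45, limma adjusted p = 0.0931). The 10 kb after the FN1 gene followed, with 7510 and 6512 bp covered without and 1151 and 649 bp with TWEAK. At the FN1 promoter, in contrast, the fold enrichments of 21.1 and 40.6 without and 43.2 and 20.5 with TWEAK overlapped. Its RNA was 1237, 1273 and 2785 CPM without and 412, 889 and 1078 CPM with TWEAK, so that all 3 TWEAK libraries were below all 3 untreated ones without a call (log2 difference -1.15, edgeR adjusted p = 0.217). In bulk samples less RNA Pol II on a gene in every cell and its loss from some of the cells cannot be told apart.

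Cover was also lower in both TWEAK libraries at CCN4, PDLIM5, PSD3 and PALMD. CCN4, a matricellular protein of the CCN family on chromosome 8 with no promoter peak in any library, had 2712 and 11288 bp covered without and 179 and 230 bp with TWEAK. Its RNA was low, at 1.08, 1.23 and 2.03 CPM without and 0.717, 0.572 and 0.2498 CPM with TWEAK (edgeR adjusted p = 0.0801). NDRG1, on the opposite strand, lies within 10 kb of CCN4. In the 10 kb after the end of CCN4, 3696 and 9125 bp were covered without and 558 and 366 bp with TWEAK. The source gene of this RNA Pol II cannot be told apart. PDLIM5 had 7383 and 2907 bp without and 636 and 594 bp with TWEAK, beside the narrower promoter described above. PSD3, an exchange factor for ARF6, had 10061 and 21849 bp without and 7900 and 1776 bp with TWEAK, and its log2 difference went from -1.94 to -0.23 with stricter peaks. PALMD, palmdelphin (chr1:99646113-99694541), had 10828 and 5269 bp without and 2973 and 1064 bp with TWEAK, and its RNA fell by 0.93 on the log2 scale (edgeR adjusted p = 0.00687). Without untreated replicate 1 the log2 difference in cover went from -1.96 to -1.20 at PDLIM5 and from -1.77 to -1.12 at PALMD.

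**Figure D4:**
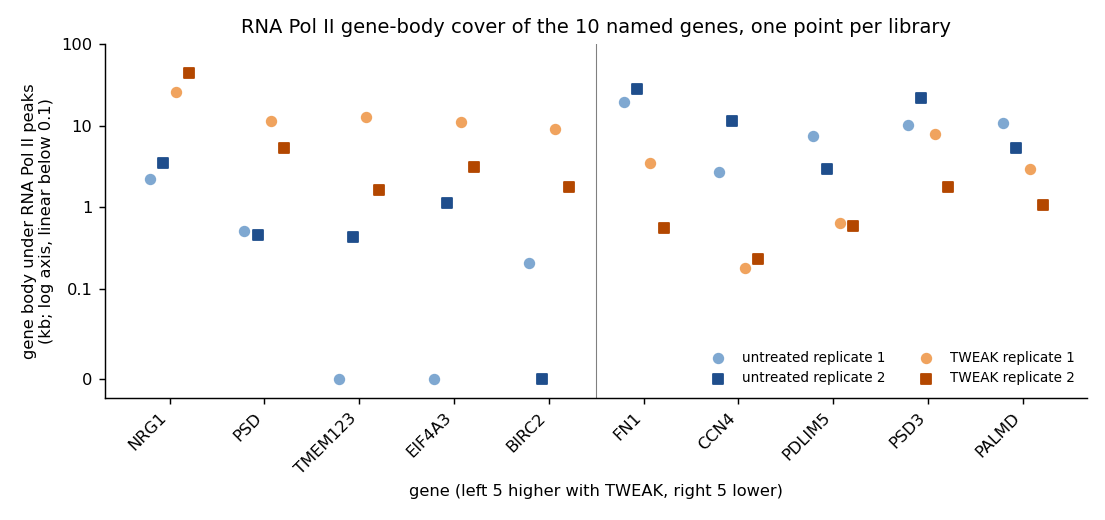
Bases of the gene body under RNA Pol II peaks (kb, log axis that is linear below 0.1 kb) of the 5 genes with the largest higher and the 5 with the largest lower cover upon TWEAK, with 1 point per library. NRG1 reaches 25.9 and 43.6 kb with TWEAK, while FN1 stands at 19.6 and 28.4 kb without TWEAK and 3.52 and 0.561 kb with it.

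NRG1 had the largest higher gene-body cover. NRG1, on chromosome 8, encodes neuregulin 1, a ligand of ERBB3 and ERBB4, and had 2216 and 3484 bp covered without and 25860 and 43637 bp with TWEAK (log2 difference 2.99, SE 0.51, limma adjusted p = 0.318). Its RNA was 36.6, 40.7 and 45.4 CPM without and 92.4, 104 and 148 CPM with TWEAK (log2 change 1.49, edgeR adjusted p = 0.00669). RNA Pol II and RNA of NRG1 were thus both higher in every TWEAK library, and the RNA difference passed its test. EIF4A3, the RNA helicase of the exon junction complex, had 0 and 1131 bp without and 11011 and 3065 bp with TWEAK, with RNA that did not pass (log2 difference -0.03). Its log2 difference in cover went from 2.07 to 1.34 with stricter peaks. Its promoter ranked between 99.5 and 99.9 in all 4 libraries.

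Gene-body cover at PSD, TMEM123 and BIRC2 lay next to NF-κB target genes. PSD is on the opposite strand just beyond the 3′ end of NFKB2, and had 507 and 455 bp covered without and 11515 and 5296 bp with TWEAK. In the 10 kb after the end of NFKB2, 507 and 0 bp were covered without and 9272 and 4938 bp with TWEAK, a stretch that overlaps PSD, so that the source gene of this RNA Pol II cannot be told apart. BIRC3, BIRC2 and TMEM123 lie next to each other on chromosome 11. The BIRC2 body had 208 and 0 bp covered without and 9144 and 1764 bp with TWEAK, and the TMEM123 body had 0 and 429 bp without and 12896 and 1646 bp with TWEAK. With stricter peaks the log2 differences in cover went from 1.93 to 0.65 at BIRC2 and from 2.17 to 1.05 at TMEM123, and without TWEAK replicate 1 they were 1.28 and 1.30. RNA of BIRC2, which encodes cIAP1, rose by 1.34 on the log2 scale (edgeR adjusted p = 0.0129), whereas RNA of TMEM123, which encodes a cell surface mucin-like protein, did not pass (log2 difference 0.17).

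The genes of the non-canonical pathway itself were then followed. NFKB2 (chr10:102394110-102402524) had promoter fold enrichments of 8.64 and 4.68 without and 38.0 and 10.8 with TWEAK, with raw values above but groups that overlap after normalisation (log2 difference 1.03, SE 0.46, limma adjusted p = 0.986). Its gene body had 1302 and 596 bp covered without and 6421 and 1961 bp with TWEAK, which was 16.4 and 7.53% against 81.1 and 24.8% of the body. This body includes the NFKB2 promoter window, so cover and promoter strength share peaks. In untreated replicate 2 the promoter peak was itself 596 bp wide. NFKB2 RNA rose from 49.6, 54.5 and 66.6 CPM to 235, 289 and 346 CPM (log2 change 2.35, edgeR adjusted p = 2.92e-05). RELB, which encodes the partner of p52, had 10.4 and 10.9 without and 25.1 and 14.6 with TWEAK (log2 difference 0.55, SE 0.36), and its RNA rose by 1.36 (edgeR adjusted p = 0.000437). The NFKB2 and RELB promoters both held a p52 peak in both TWEAK p52 libraries and not in both untreated ones. For NFKBIA, BIRC3, ETS1, ERN1 and TNFRSF12A, the promoter window used here held no p52 peak shared by both TWEAK p52 libraries.

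BIRC3, which encodes cIAP2, differed by the presence of RNA Pol II peaks. No RNA Pol II peak lay at its promoter or gene body in either untreated library, whereas the TWEAK libraries had promoter peaks of 19.7- and 10.6-fold enrichment that were 2482 and 969 bp wide. RNA of BIRC3 rose from 4.52, 3.53 and 1.97 CPM to 166, 153 and 202 CPM (log2 change 5.71, SE 0.42, edgeR adjusted p = 2.92e-05). A peak missing from a list says only that the signal did not pass the threshold of the peak caller.

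The receptor TNFRSF12A showed no such difference. Its promoter had 23.4 and 33.3 without and 49.9 and 35.9 with TWEAK, a log2 difference of 0.07 (SE 0.33) after normalisation, and its RNA did not pass (log2 difference 0.31, edgeR adjusted p = 0.136). ERN1, which encodes the stress sensor IRE1α of the endoplasmic reticulum (chr17:64039080-64130819), had 20.5 and 36.1 without and 85.8 and 53.1 with TWEAK, a log2 difference of 0.73 (SE 0.33, limma adjusted p = 0.986). RNA Pol II at ERN1 was also wider, 1029 and 874 bp without and 1667 and 1497 bp with TWEAK, and its RNA was 9.76, 9.34 and 13.6 CPM without and 12.8, 16.95 and 24.96 CPM with TWEAK (edgeR adjusted p = 0.136). At ETS1, an ETS family transcription factor, no library had a peak in the promoter window of its MANE Select transcript, the window used for each gene, and the gene body had 13631 and 4883 bp covered without and 26991 and 8619 bp with TWEAK, with overlap. RNA of ETS1 rose by 0.86 on the log2 scale (edgeR adjusted p = 0.0076).

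Inhibitors and feedback genes of NF-κB had stronger RNA Pol II at most measured promoters. Of 8 measured members of 10, 6 had stronger RNA Pol II in both TWEAK libraries and 0 weaker, with a median log2 difference of 0.58, where 16.6% of all sites were higher and 16.4% lower. The counts were 7 and 1 without untreated replicate 1, where 33% of all sites were higher and 34.5% lower, and 6 and 0 without TWEAK replicate 1, where 31.3% were higher and 30.2% lower. Counts of the gene groups below are read against the same shares of all sites. NFKBIA, which encodes the inhibitor IκBα, had 34.97 and 35.96 without and 159 and 67.7 with TWEAK (log2 difference 0.93, SE 0.35). NFKBIE, which encodes IκBε, had 7.26 and 14.2 without and 35.9 and 25.1 with TWEAK. NFKBIZ, which encodes the nuclear regulator IκBζ, had 37.5 and 66.1 without and 195 and 74.3 with TWEAK. The other 3 were TNFAIP3, NFKBIB, with 8.55 and 13.1 without and 20.7 and 13.4 with TWEAK, and TNIP1, a partner of A20, with 5.75 and 7.09 without and 14.4 and 7.28 with TWEAK. BCL3 and CYLD overlapped between conditions, TNIP2 had a peak in 3 libraries and NFKBID had none. RNA of 6 of the 10 rose (NFKBIA, NFKBIB, NFKBIE, NFKBIZ, TNIP1 and TNIP2), where 1.55% of 16879 genes rose and 1.53% fell (edgeR).

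Receptor, TRAF and kinase genes of the TWEAK pathway divided. Of 7 measured members of 13, RNA Pol II was stronger in both TWEAK libraries at 4 (TRAF1, BIRC2, MAP3K14 and IKBKG, which encodes the IKK subunit NEMO) and weaker at TRAF6, and the counts were 4 and 2 without untreated replicate 1. These 4 are 57.1% of the measured members, against 16.6% of all sites. MAP3K14, which encodes NIK, had 6.69 and 12.7 without and 16.3 and 18.1 with TWEAK, and its RNA rose by 1.57 on the log2 scale. TRAF6, an adaptor of Toll-like and interleukin-1 receptors, had 6.39 and 16.5 without and 4.03 and 7.35 with TWEAK. TRAF1, TRAF3 and BIRC3 had a promoter peak in both TWEAK and neither untreated library. RNA of 6 of the 13 rose. Of the 5 NF-κB subunit genes, RELB alone was separated by condition in normalised promoter strength (20%, against 16.6% of all sites). The stronger genes numbered 2 with median centring and 3 without normalisation. Without untreated replicate 1 the counts were 3 stronger and 1 weaker. In normalised width, RELA was wider and NFKB1 narrower in both TWEAK libraries. RNA of NFKB2 and RELB rose.

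Most chemokine genes had no RNA Pol II peak at the promoter. Of 18 chemokine genes, 14 had no promoter peak in any library, and of the 3 measured in all 4 libraries CXCL2 and CXCL3 were stronger with TWEAK. CXCL3 had 8.17 and 11.6 without and 37.6 and 16.1 with TWEAK, while CXCL8, which encodes interleukin-8, overlapped with 20.01 and 11.5 without and 35.5 and 18.5 with TWEAK. RNA of 4 of the 8 tested chemokine genes rose, among them CXCL5, by 2.81 on the log2 scale, with no RNA Pol II peak in any library. Among 15 interleukin and colony-stimulating factor genes 7 had no promoter peak in any library and 3 were measured in all 4, and RNA of 6 of 14 tested rose. IL1B had a promoter peak in the TWEAK libraries alone, of 10.7- and 7.40-fold enrichment. RNA of IL32 and IL34 rose by 3.89 and 4.14 on the log2 scale without a promoter peak in any library.

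Antigen presentation and interferon genes showed scattered differences. Of 9 measured genes of MHC class I presentation, 1 was stronger (HLA-B, 10.01 and 13.5 without and 30.3 and 20.02 with TWEAK) and 3 were weaker in both TWEAK libraries (11.1 and 33.3%, against 16.6 and 16.4% of all sites). This balance turned with scaling, to 5 stronger and 2 weaker with median centring and 3 and 1 without normalisation, and was 3 and 4 without untreated replicate 1. At B2M, the light chain of MHC class I, the peak covered 885 and 810 bp without and 4865 and 2294 bp with TWEAK, while its normalised summit strength was lower in both TWEAK libraries. RNA of HLA-B, B2M and ERAP1, an aminopeptidase that trims antigen peptides, rose. Of 8 measured interferon-stimulated genes, 4 were stronger (50%) and 0 weaker, against 16.6 and 16.4% of all sites, and 6 and 2 without untreated replicate 1. RNA of 1 of 24 rose. That gene was IRF1, a transcription factor downstream of interferon and NF-κB, with 28.8 and 41.0 without and 125 and 49.7 with TWEAK and an RNA log2 change of 0.70 (edgeR adjusted p = 0.0133).

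Stress and growth genes were taken next, and the balance of some groups rested on untreated replicate 1. The AP-1 genes FOS, JUN and JUNB, immediate early genes of growth signalling, had fold enrichments from 66.1 to 227 in the 4 libraries, with overlap between conditions. Of 11 measured AP-1 genes, 3 were stronger (27.3%, against 16.6% of all sites) and 0 weaker, and RNA of JUNB and MAFF rose. Of 17 genes of the unfolded protein response, 5 were stronger (29.4%, against 16.6% of all sites), ERN1 among them, and 1 was weaker (ATF6). Without untreated replicate 1 they divided evenly, with 8 stronger and 8 weaker. RNA of 0 of 19 was called by edgeR or DESeq2, with 3 at an unadjusted p under 0.05. Of 14 genes of the ATF4 response, 4 were stronger (28.6%) and 1 was weaker, against 8 and 4 without untreated replicate 1, and RNA of 0 of 21 was called by edgeR, with 6 at an unadjusted p under 0.05 and 3 higher by DESeq2. SLC7A5, the large neutral amino acid transporter LAT1, had 14.1 and 18.7 without and 93.1 and 26.5 with TWEAK. Of 15 cell cycle genes, 8 were stronger (53.3%) and 2 weaker (13.3%), against 16.6 and 16.4% of all sites. The counts were 8 and 3 without untreated replicate 1, where 33 and 34.5% of all sites were stronger and weaker, and 11 and 3 without TWEAK replicate 1, where 31.3 and 30.2% were. RRM2, the small subunit of ribonucleotide reductase, had 4.72 and 13.9 without and 26.3 and 15.97 with TWEAK, and 432 and 4983 bp of its body covered without and 16038 and 7993 bp with TWEAK. RNA of the cell cycle genes CDC20, AURKB and CCND1 rose, by 0.42 to 0.52 on the log2 scale.

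Extracellular matrix genes and ribosomal protein genes were lower by rank, in a way that depended on scaling. Of 18 measured matrix and plasminogen genes, 2 were stronger (11.1%) and 8 weaker (44.4%) in both TWEAK libraries, or 6 and 8 without untreated replicate 1, with a median log2 difference of -0.24, which became 0.07 with median centring (6 and 4 genes) and 0.19 without normalisation (5 and 4). MMP2, which encodes a gelatinase, had 9.99 and 10.1 without and 6.16 and 5.50 with TWEAK, and COL1A1, an α chain of collagen I, had 12.6 and 20.5 without and 12.3 and 8.03 with TWEAK, below in raw values too. COL6A1, of collagen VI, had 6.69 and 13.2 without and 27.5 and 18.2 with TWEAK. Gene-body cover was lower in both TWEAK libraries for 4 of 19 matrix genes (FN1, LAMB1, SPARC and CCN2, 21.05%) and higher for 0. Of all 4441 genes measured for cover, 13.1% were lower and 11.9% higher. Among the matrix genes, RNA of PLAUR, MMP1, MMP9 and CCN1 rose and of PLAT fell. MMP9, a gelatinase, was at 0 CPM in all 3 untreated libraries and at 0.646, 1.27 and 3.28 CPM with TWEAK, and had no RNA Pol II peak in any library. Of 77 ribosomal protein genes, 4 were stronger and 27 weaker by rank, but 24 and 4 with median centring and 10 and 0 without normalisation. RNA of 0 of 78 ribosomal protein genes was called by edgeR or DESeq2, with 1 at an unadjusted p under 0.05. Of 34 histone genes, some of which share a promoter site as neighbours, 6 were stronger (17.6%, near the 16.6% of all sites) and 0 weaker. The counts were 8 and 9 without untreated replicate 1 and 18 and 0 with median centring, and RNA of 0 of 20 was called by edgeR or DESeq2, with 1 at an unadjusted p under 0.05.

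RNA Pol II appeared at some promoters in one condition alone. A promoter peak was present in both TWEAK and neither untreated library for 124 of 20007 coding genes, in both untreated and neither TWEAK library for 36, and in all 4 libraries for 5834. These counts rest on single libraries. TWEAK-only genes numbered 147 and 2100 without untreated replicates 1 and 2, and 221 and 553 without TWEAK replicates 1 and 2. Untreated-only genes numbered 762 and 64, and 249 and 115, in the same order. Ordered by the lower of its ranks, TRAF1 led the TWEAK-only genes (96.5 and 95.0), followed by BIRC3 (95.6 and 87.3). G0S2, an inhibitor of the lipase ATGL, had peaks of 9.15- and 10.2-fold enrichment, and its RNA rose from 12.4, 12.2 and 12.0 CPM to 45.9, 38.8 and 45.1 CPM. NETO2, MARCKSL1 and KLHL25 came next, with RNA that did not pass. Among untreated-only genes, CNN2, the actin-binding calponin 2, had 7.1- and 9.5-fold enrichment and MTPAP, the mitochondrial poly(A) polymerase, 5.7 and 8.0. SAMD15 and TMED8 shared a promoter peak, and IFT52, of ciliary transport, and HDAC6, the cytoplasmic tubulin deacetylase, completed the group, with no RNA call among the 6 genes.

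TWEAK-only promoters were next set beside the RNA of their genes. Of the 111 such genes with RNA tested, RNA of 13 rose (11.7%) and of 1 fell (0.901%), against 100 (1.80%) and 47 (0.847%) of 5546 genes with a promoter peak in all 4 libraries. Of 35 untreated-only genes, RNA of 1 fell (2.86%). The 13 genes were BIRC3, HCAR2, TRAF1, IL1B, CTSS, G0S2, CH25H, CADM1, PLA2G4C, NUAK2, TRAF3, EHD4 and GLDC, with log2 RNA changes from 0.66 to 5.71. They included HCAR2, a receptor for hydroxybutyrate and niacin, CTSS, the lysosomal protease cathepsin S, and CH25H, the cholesterol 25-hydroxylase, whose TWEAK peaks had 4.18- and 5.64-fold enrichment. A p52 peak lay at 4.03% of the TWEAK-only promoters, at 0% of the untreated-only ones and at 3.60% of those in all 4 libraries.

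RNA Pol II was then read at the coding genes whose RNA changed, a grouping that uses the RNA-seq libraries alone. Of 222 coding genes whose RNA rose, 105 had a promoter site in all 4 RNA Pol II libraries. At 55 of these (52.4%) strength was higher in both TWEAK libraries and at 6 (5.71%) lower, against 19.5 and 15.4% of all 5717 such genes with RNA tested. Gene-body cover of genes whose RNA rose was higher at 39 of 107 (36.4%) and lower at 0, against 11.9 and 13.5% of 3983 genes. With any 1 RNA Pol II library left out, the share with higher strength was 61.0 to 69.5%, against 30 to 46.7% of all such genes, and the share with higher cover was 48.6 to 69.2%, against 28.7 to 32.0%. These shares are descriptions, and the difference between them was not tested.

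For genes whose RNA fell, the counts leaned to lower width and gene-body cover, and were even for strength. Of 236 such genes, 48 had a promoter site in all 4 libraries, of which 11 (22.9%) were stronger and 10 (20.8%) weaker in both TWEAK libraries. Width was lower at 16 of the 48 (33.3%) and higher at 0, against 13.6 and 14.2% of all such genes. Without untreated replicate 1 width was lower at 19 (39.6%) and higher at 11 (22.9%), against 31.2 and 30.8% of all. Gene-body cover was lower at 24 of 63 (38.1%) and higher at 1 (1.59%), with a median log2 difference of -0.37. With any 1 library left out, the share with lower cover was 52.4 to 60.3%, against 27.8 to 38.3% of all genes. A promoter peak in all 4 libraries was found for 47 of the 236 genes whose RNA fell (19.9%), for 100 of the 222 whose RNA rose (45.05%) and for 43.3% of all 12818 genes. No promoter peak in any library was found for 56 genes (25.2%) whose RNA rose and 115 (48.7%) whose RNA fell. Across genes, which are not independent replicates, Spearman's rho between the log2 differences of RNA Pol II and RNA was 0.0834 for strength (5717 genes), 0.108 for width and 0.258 for gene-body cover (3983 genes).

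**Figure D5:**
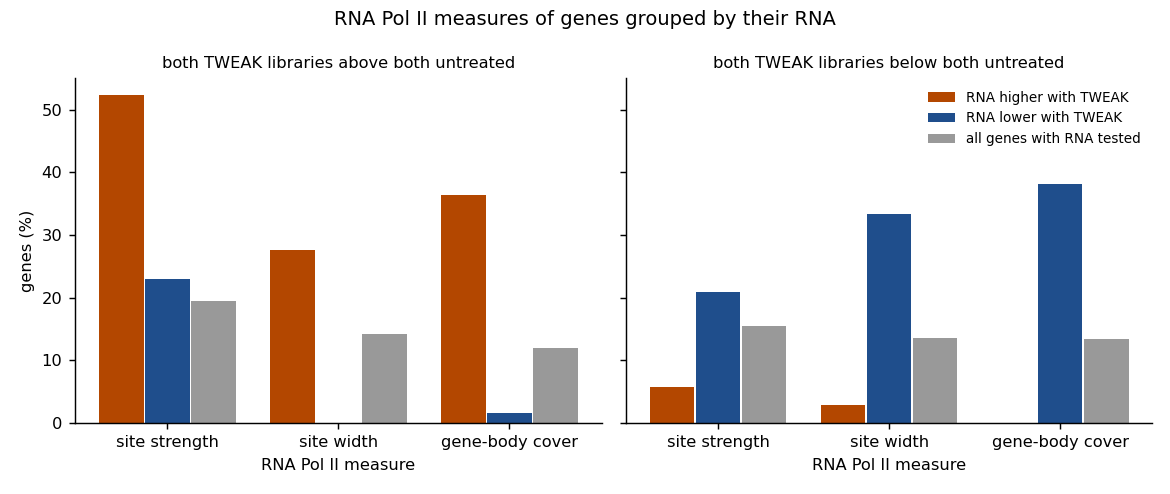
Percentage of coding genes with both TWEAK libraries above (left) or below (right) both untreated libraries in RNA Pol II strength, width and gene-body cover, for genes whose RNA rose, genes whose RNA fell and all genes with RNA tested. Higher strength is found for 52.4% of the genes whose RNA rose against 19.5% of all, and lower gene-body cover for 38.1% of the genes whose RNA fell against 13.5% of all.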

How the data were processed

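For ChIP-seq, the authors mapped reads to hg38 with Bowtie2, called peaks per library with MACS2 against input and took out blacklisted regions. The deposited list of each library holds a fold enrichment ratio and −log10 p- and q-values at each summit, which are the authors' values. Which input served which library is not given in the sources used here, and the label of the control input says that its cells were treated with TWEAK. Read depth is unknown, and the authors' differential binding by DiffBind needs reads and was not used here. For RNA-seq, the authors deposited whole-number counts per gene from STAR and featureCounts on hg38, with 0 unused value columns.

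Samples were grouped by their labels. Peaks on assembled chromosomes sharing at least 1 bp were merged into sites. Genes and starts came from GENCODE, and promoters ran from 1000 bp before to 100 bp after a start. Strength was log2 fold enrichment, width was log2 bp and gene-body cover was log2 of bp + 1000, each quantile-normalised over the libraries. Gene bodies had at least 2000 bp and a mean cover of at least 500 bp. These measures were compared with limma 3.58.1 in R 4.3.3, with Benjamini-Hochberg adjustment over all sites or genes. RNA counts were tested with edgeR 4.0.16 (TMM, filterByExpr, quasi-likelihood test over the 4 RNA-seq groups). Changed means an adjusted p under 0.05, and called has the same meaning. Library values were compared with exact permutation tests in SciPy 1.17.1. Python 3.11.15, NumPy 2.4.6, pandas 2.3.3 and matplotlib 3.10.9 were used for the rest. Both models were tested on simulated data. RNA replicates differed by more than sampling noise.

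Named genes were 7 pathway genes (NFKB2, RELB, NFKBIA, BIRC3, ETS1, ERN1 and TNFRSF12A), the 10 promoter sites per direction for strength and the 5 per direction for width and gene-body cover with the largest differences among called items or, as no such number was called, among those whose groups do not overlap, up to 6 genes per direction for promoter presence, and members of gene lists. The members and lists were chosen with earlier results of these data known. Sites outside promoters, the widest domains and genes in the RNA groups were named after their values were seen. Alternatives were other scalings, −log10 p in place of fold enrichment, stricter peaks (−log10 q of at least 5), equal numbers of peaks, wider promoters, a replicate block, DESeq2 1.42.0 and leaving out each library. Values of 1 gene of the matrix list are not reported here, although the counts over that list include it.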

Additional observations from a re-analysis of the deposited data

How the results depend on the processing

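Calls of single RNA Pol II sites depended on the fit. With libraries centred on their medians 3 sites passed for strength (the site in DHX8, CXCL2 and MYBL1) and without normalisation 2 passed (the site in DHX8 and CXCL2), against 0 in the reported fit, with −log10 p, with stricter peaks and with each library left out (0 to 0). Without normalisation the share of sites or genes lower in both TWEAK libraries was 7.47% for strength, 7.10% for width and 5.47% for gene-body cover.

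Replicate numbers are shared between conditions, but no source says that they mark a shared culture or day, and there are only 2 pairs. Deviations of same-numbered libraries from their group means had a correlation of 0.132 for strength and 0.27 for width. With a replicate block 13 sites passed for strength, 1 for width and 25 genes for gene-body cover. The block gave 341 higher and 316 lower genes for RNA.

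The difference in promoter share ranged from -4.20 to 6.24 percentage points with each library left out, and was -4.20 without TWEAK replicate 2. For intron share the range was -4.24 to 2.67 percentage points. The difference in median width was 26 bp with equal numbers of peaks, 23.5 bp with stricter peaks and -20.5 to 18.5 bp with each library left out, and that in median fold enrichment was -0.00804 with stricter peaks and -0.242 to 0.293 with each library left out. TWEAK-only promoter genes numbered 147 to 2100 with each library left out. Untreated-only genes numbered 64 to 762 (762 without untreated replicate 1), and 68 with equal numbers of peaks.

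RNA of 431 genes was higher and of 509 lower by DESeq2, 509 were lower with no filter, and with each library left out 110 to 236 were higher and 61 to 169 lower. Of 328 RNA Pol II values of named genes under the alternatives, 308 kept their direction and side of the threshold, 20 newly passed it, and 0 reversed. None was called in the reported fit, so no call could be lost. The genes were also chosen for large differences between groups that do not overlap, so these counts do not measure robustness. Of 40 named RNA Pol II differences, 10 shrank by more than 1.5 times without untreated replicate 1 and 8 without TWEAK replicate 1. The causes of these shifts were not tested. With 2 libraries per condition and unknown read depth, a site that did not pass cannot be read as unchanged.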

Other observations

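Some genes changed in RNA with no RNA Pol II peak to compare. Of the 222 coding genes whose RNA rose, 29 had no peak at the promoter or in the gene body in any of the 4 libraries, and of the 236 whose RNA fell 60 had none, against 1599 of all 12818 tested. These shares were not tested against each other. The examples that follow were chosen after their values were seen. CXCL5, a neutrophil chemokine, had neither kind of peak in any library, and its RNA was 0.799, 1.20 and 0.688 CPM without and 5.49, 5.18 and 8.22 CPM with TWEAK (log2 change 2.81, edgeR adjusted p = 0.000193). IL34, a ligand of the CSF1 receptor, had no promoter peak in any library. RNA Pol II peaks covered 659 and 538 bp of its gene body without and 5607 and 722 bp with TWEAK, a difference that did not pass the test (limma adjusted p = 1), and its RNA was 0.139, 0.215 and 0.281 CPM without and 2.73, 4.51 and 4.19 CPM with TWEAK (log2 change 4.14, edgeR adjusted p = 0.000888).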
